A study of Mus musculus with 9 samples.

Results

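The 10 genes described here encode the core of mitochondrial fatty acid oxidation: Cpt1a, Slc25a20 and Cpt2 of the carnitine shuttle, the acyl-CoA dehydrogenases Acadvl, Acadl and Acadm, the trifunctional protein subunits Hadha and Hadhb, the thiolase Acaa2 and the electron carrier Etfdh. They were taken by symbol from the array annotation, and all 10 were found among the 18193 genes that carry a probe set with a single symbol. They were represented by 20 probe sets, each a group of short probes for a transcript. The cells were day 6 cytotoxic T lymphocytes (CTL), CD8 T cells that kill infected cells, grown from spleens of P14-TCR mice of wild type genotype that carry a transgenic T cell receptor for the viral peptide gp33-41. They were activated for 48 h with that peptide and interleukins 2 and 12, and expanded for 96 h more. For the last 48 h, 3 cultures received KU-0063794 at 1 uM, a direct inhibitor of the mTOR kinase, 3 received rapamycin at 20 nM, which acts mainly on mTOR complex 1, and 3 received the solvent DMSO. Each of the 3 spleens gave 1 culture to every group. The cultures were of bulk cells, so fewer cells of a type and less RNA per cell cannot be told apart.

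In fatty acid oxidation, long-chain acyl groups are moved into mitochondria on carnitine: CPT1A loads them at the outer membrane, the carrier encoded by Slc25a20 exchanges them across the inner membrane, and CPT2 returns them to coenzyme A. Inside, acyl-CoA dehydrogenases matched to chain length take the first oxidation step and pass electrons through ETF and the enzyme encoded by Etfdh to ubiquinone. The trifunctional protein and the thiolases complete each cycle and release acetyl-CoA. The pathway has been linked to memory CD8 T cells, while effector cells rely more on glycolysis.

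Signals are the authors' log2 values per probe set. A level of 1.43 log2, the 95th percentile of 33 genes restricted to other tissues, is called the background level here. All 10 genes lay above it on all 9 arrays by their brightest probe set, which stood for the gene in the tests. Between 29.3% and 29.9% of probe sets were above it of an array, whose median signal was 0.47 to 0.53 log2. By the mean over the 9 arrays, all 10 measured CD8 T cell markers were above it. So were 1 of 7 B cell markers (Cd79b), 1 of 4 CD4 T cell markers (Zbtb7b) and 1 of 11 myeloid markers (Csf1r). None of 2 natural killer or 5 erythroid and stromal markers was. The B cell gene Ms4a1 (0.08 log2), the myeloid gene Itgam (0.10 log2) and the regulatory T cell gene Foxp3 (0.06 log2) were near 0. Summed log2 signals of the B cell list were 3.78 to 4.82 in KU-0063794, 2.79 to 5.31 in rapamycin and 3.87 to 5.18 in DMSO cultures, and those of the myeloid list 5.27 to 6.44, 4.45 to 5.41 and 5.31 to 6.07 in the same order of groups. The CD4 list summed to 2.91 to 3.33, 3.09 to 3.36 and 3.29 to 3.92 log2, the natural killer list to 0.36 to 0.52, 0.34 to 0.47 and 0.33 to 0.62, and the CD8 list to 71.78 to 73.87, 71.61 to 74.59 and 72.53 to 76.43. The erythroid and stromal list summed to 3.28 to 3.87, 2.69 to 3.14 and 3.17 to 3.76, so that rapamycin lay below DMSO without overlap. Every marker of that list had a mean over the 9 arrays below the background level. Pecam1, the highest of them at 1.42 log2, averaged 1.53, 1.24 and 1.49 in the same order of groups, above the level in KU-0063794 and DMSO. As a sign of RNA integrity, actin probes at the 3' end exceeded those at the 5' end by 0.65 to 0.70 log2 in KU-0063794, 0.62 to 0.72 in rapamycin and 0.49 to 0.65 in DMSO cultures, more with either inhibitor in each spleen. The same measure for Gapdh probes went the other way, less with either inhibitor in each spleen. It was -0.22 to -0.03 log2 in KU-0063794, -0.25 to -0.03 in rapamycin and -0.21 to 0.04 in DMSO cultures. The part of these 2 measures and of the marker sums in the differences below was not tested.

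The start regions of the genes that passed the test, Slc25a20 and Acadl, and of Hadhb, which did not, are shown because they set genes that fell beside a gene with no call. The sequences are RefSeq windows on GRCm38.p6 from 250 bases before to 50 bases after a gene's start, read on the gene's own strand. Capitals mark the letters GGGCGG, the box read by Sp1 factors, or its reverse complement on the other strand.
Slc25a20, chr9:108661886-108662185, plus strand: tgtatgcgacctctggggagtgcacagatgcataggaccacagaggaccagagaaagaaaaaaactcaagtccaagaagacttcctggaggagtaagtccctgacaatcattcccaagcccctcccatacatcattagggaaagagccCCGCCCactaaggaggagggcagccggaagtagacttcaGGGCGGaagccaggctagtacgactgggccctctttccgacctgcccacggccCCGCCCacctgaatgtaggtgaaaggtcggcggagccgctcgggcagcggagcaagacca
Acadl, chr1:66863260-66863559, minus strand: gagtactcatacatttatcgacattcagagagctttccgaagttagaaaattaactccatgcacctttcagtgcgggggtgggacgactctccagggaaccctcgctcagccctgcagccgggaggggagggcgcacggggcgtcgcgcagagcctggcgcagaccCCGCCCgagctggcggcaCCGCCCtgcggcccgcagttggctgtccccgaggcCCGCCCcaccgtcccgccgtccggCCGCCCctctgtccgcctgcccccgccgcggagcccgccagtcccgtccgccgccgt
Hadhb, chr5:30155003-30155302, plus strand: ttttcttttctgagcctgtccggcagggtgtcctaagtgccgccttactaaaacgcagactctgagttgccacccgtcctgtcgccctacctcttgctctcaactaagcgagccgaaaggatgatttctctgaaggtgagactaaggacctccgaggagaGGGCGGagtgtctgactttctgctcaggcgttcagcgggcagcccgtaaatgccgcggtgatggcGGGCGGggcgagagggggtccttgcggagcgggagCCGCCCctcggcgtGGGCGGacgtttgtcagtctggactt

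The GGGCGG box occurred 3 times in the Slc25a20 window and 4 times each in the Acadl and Hadhb windows, on either strand. Windows were matched for 9 of the 10 genes, and 7 of these held at least 1 such box, against 35.7% of all 32851 windows. Acadm and Acadvl held none. The letters AGGTCA, a core element read by many nuclear receptors, were in the Cpt1a, Acadm and Acadvl windows, and in 16.3% of all windows. A direct repeat of AGGTCA with 1 base between the copies, the form read by PPAR receptors, was in none of the 9 and in 0.0396% of all windows. The E-box CACGTG was also in none of the 9 (7.15% of all windows), and the CCAAT box was in the Cpt1a and Etfdh windows (37.4% of all). The Hadha and Hadhb starts lie head to head 273 bases apart on opposite strands, so that their windows share 228 bases. These matches are descriptions of letters.

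The question was which transcripts of the pathway differ in CTL whose mTOR signalling has been inhibited for 48 h. The carrier gene Slc25a20 fell with either inhibitor, to 66.6% of the DMSO signal with KU-0063794 and to 71.0% with rapamycin. Acadl, the long-chain acyl-CoA dehydrogenase gene, fell to 74.6% with rapamycin. The other 8 genes did not pass with either inhibitor when the spleen was left out of the fit, among them both carnitine palmitoyltransferases and both trifunctional subunits. With the spleen as a block, Acadl passed for KU-0063794 too, and Acadm and Acadvl passed for rapamycin, all of them lower. With the spleen as a random block, whose correlation is estimated, Acadm (adjusted p = 0.122) and Acadvl (adjusted p = 0.0606) did not pass for rapamycin, Etfdh did (adjusted p = 0.0391), and Acadl still passed for KU-0063794 (adjusted p = 0.0141). Tests were limma's moderated tests over 13278 genes with Benjamini-Hochberg adjustment and a threshold of 0.05.

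In counts, 1 of 10 genes fell and none rose with KU-0063794, where 1.78% of all genes tested fell and 2.28% rose. With rapamycin 2 of 10 fell and none rose, where 1.79% of all genes fell and 2.65% rose. With the replicate block, the spleen entered as a fixed term, 2 fell with KU-0063794 and 4 with rapamycin, and none rose. The shares of all genes were then 5.86% lower and 6.52% higher with KU-0063794, and 5.52% lower and 6.24% higher with rapamycin. The median log2 fold change of the 10 genes was -0.18 with KU-0063794 and -0.26 with rapamycin, where the medians of all genes tested were 0.01 and 0.00. Both comparisons use the same 3 DMSO arrays. The 10 genes were chosen with earlier results of these data known, so the counts beside the shares are a description. All 10 lay above the background level, as did 7954 of the 13278 genes tested. With only genes above that level tested, 671 passed with KU-0063794 and 706 with rapamycin, in either direction. Over all 13278 genes 540 and 590 passed, so the share called was higher among genes above the level. Of the 10 genes, 2 passed with each inhibitor in that setting. All values are on the log2 signal scale, on which differences between arrays can be compressed.

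**Figure D1:**
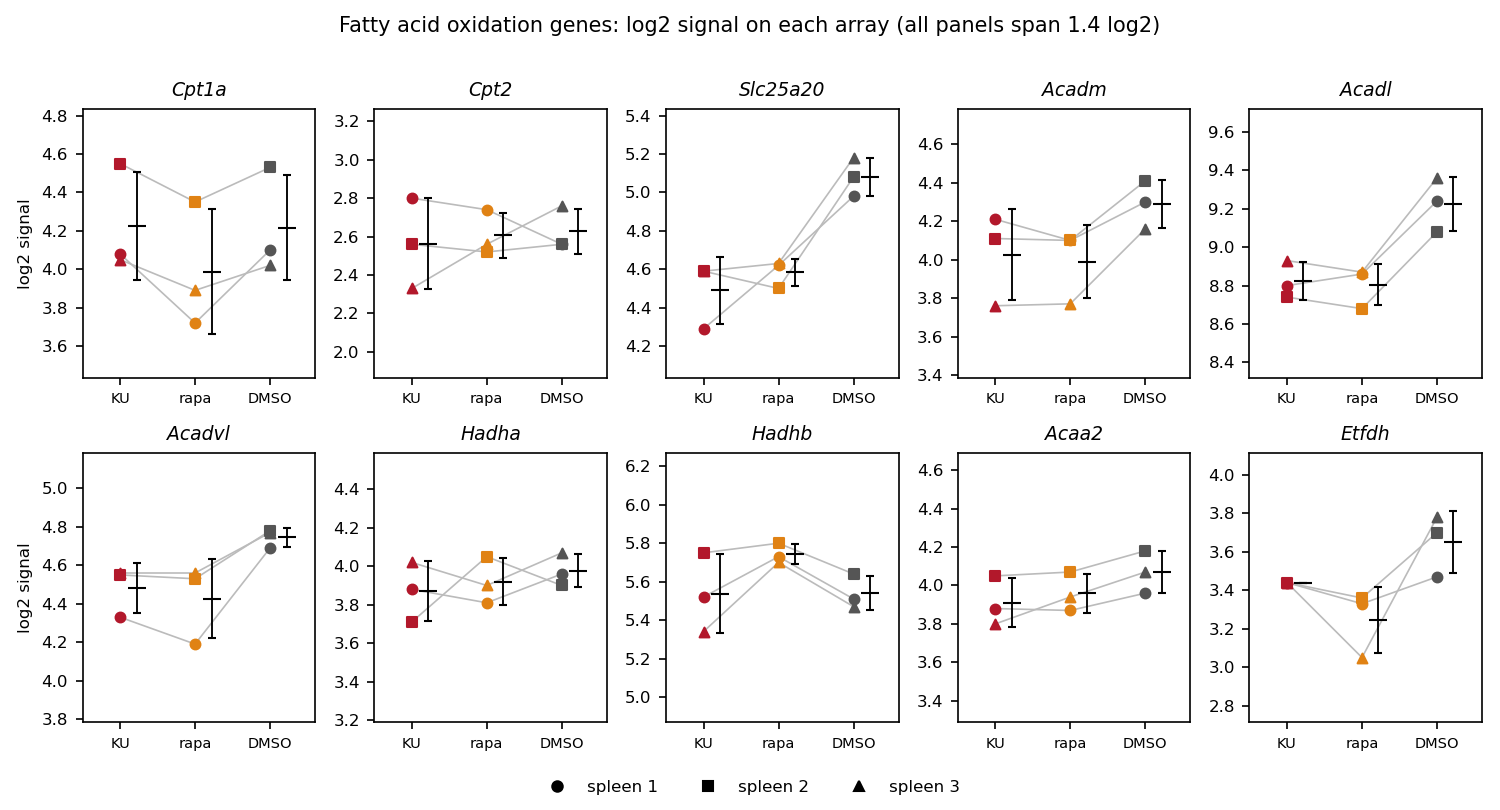
Log2 signal (y axis) of each of the 10 genes on every array, by group (x axis: KU-0063794 as KU, rapamycin as rapa, DMSO), with spleens as symbols joined by grey lines. Black marks give the mean and SD of 3 arrays, and every panel spans the same 1.4 log2. All inhibitor values of Slc25a20, Acadl, Acadvl and Etfdh lie below their DMSO values, while those of Cpt2, Hadha and Cpt1a overlap with DMSO.

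Slc25a20 encodes the carnitine-acylcarnitine translocase. Its probe set 1423108_at read 4.29, 4.59 and 4.59 log2 in the KU-0063794 cultures of spleens 1, 2 and 3, 4.62, 4.50 and 4.63 in the rapamycin cultures, and 4.98, 5.08 and 5.18 in the DMSO cultures. Every inhibitor value was below every DMSO value, and the inhibitor groups overlapped with each other. The log2 fold change was -0.59 with KU-0063794 (SE 0.10, 95% interval -0.82 to -0.36, limma adjusted p = 0.0180) and -0.49 with rapamycin (SE 0.10, 95% interval -0.72 to -0.26, adjusted p = 0.0301). A dimmer probe set, 1423109_s_at, read 2.02, 2.28 and 2.09 log2 with KU-0063794, 2.02, 1.77 and 2.48 with rapamycin, and 2.52, 2.35 and 2.87 with DMSO. It differed by -0.45 and -0.49 log2 from DMSO, the same direction, but passed for neither inhibitor when every probe set was tested (adjusted p = 0.266 and 0.226). The rapamycin call was lost without any single rapamycin or DMSO array (adjusted p from 0.0623 to 0.0946), and the KU-0063794 call without DMSO replicate 3 (0.0513), KU-0063794 replicate 1 (0.0565) or KU-0063794 replicate 3 (0.0505). It was also lost for both when probe sets were averaged, or when only the 2 groups compared entered the fit (adjusted p from 0.0552 to 0.0660).

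The palmitoyltransferases on each side of the carrier did not pass. Cpt1a encodes the liver isoform of the enzyme that controls entry of long-chain fatty acids. Its probe set 1460409_at read 4.08, 4.55 and 4.05 log2 with KU-0063794, 3.72, 4.35 and 3.89 with rapamycin and 4.10, 4.53 and 4.02 with DMSO. Spleen 2 was the highest in every group, and KU-0063794 and DMSO values overlapped. Its log2 fold change was 0.01 with KU-0063794 (95% interval -0.45 to 0.46, limma adjusted p = 0.995) and -0.23 with rapamycin (95% interval -0.68 to 0.23, adjusted p = 0.626), the rapamycin value being lower in all 3 spleens. With the replicate block the rapamycin adjusted p was 0.0961. Of its other probe sets, 1434866_x_at averaged 2.41 log2 and differed by -0.02 with KU-0063794 and 0.09 with rapamycin, for rapamycin opposite in direction to the brightest one, and 1438156_x_at lay below the background level on all arrays. The mean of the gene's probe sets differed by 0.04 with KU-0063794 and -0.05 with rapamycin. Cpt2 read 2.80, 2.56 and 2.33 log2 with KU-0063794, 2.74, 2.52 and 2.56 with rapamycin and 2.56, 2.56 and 2.76 with DMSO. Its groups overlapped, with log2 fold changes of -0.07 (95% interval -0.35 to 0.22) and -0.02 (95% interval -0.30 to 0.26).

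The 3 acyl-CoA dehydrogenase genes were all lower with either inhibitor in all 3 spleens, with calls that depended on the fit. Acadl read 8.80, 8.74 and 8.93 log2 with KU-0063794, 8.86, 8.68 and 8.87 with rapamycin and 9.24, 9.08 and 9.36 with DMSO, by probe set 1448987_at. Neither inhibitor group overlapped with DMSO. The log2 fold change was -0.40 with KU-0063794 (SE 0.10, 95% interval -0.63 to -0.18, limma adjusted p = 0.0605, or 0.00855 with the replicate block) and -0.42 with rapamycin (SE 0.10, 95% interval -0.65 to -0.20, adjusted p = 0.0487, or 0.00776 with the block). This rapamycin call was lost without each array other than DMSO replicate 2 (adjusted p from 0.0637 to 0.141). It was lost as well after quantile normalization (0.0504), with no filter on low values (0.0546), with every probe set tested (0.0628) and with only 2 groups in the fit (0.111). The KU-0063794 difference passed without DMSO replicate 2 (0.0427), among genes above the background level (0.0415) and with a trended prior (0.0253). The gene's other probe set, 1448988_at, was below the background level on all 9 arrays, and its mean with the first gave -0.18 and -0.07 log2.

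Acadvl, the very long-chain acyl-CoA dehydrogenase gene, read 4.33, 4.55 and 4.56 log2 with KU-0063794, 4.19, 4.53 and 4.56 with rapamycin and 4.69, 4.78 and 4.77 with DMSO. Spleen 1 was the lowest in every group, and no inhibitor value reached the DMSO range. The log2 fold change was -0.26 with KU-0063794 (95% interval -0.52 to -0.01, limma adjusted p = 0.256, or 0.0652 with the replicate block) and -0.32 with rapamycin (95% interval -0.58 to -0.06, adjusted p = 0.173, 0.0358 with the block, and 0.0606 with a random block). Acadm, the medium-chain acyl-CoA dehydrogenase gene, read 4.21, 4.11 and 3.76 log2 with KU-0063794, 4.10, 4.10 and 3.77 with rapamycin and 4.30, 4.41 and 4.16 with DMSO. Spleen 3 was the lowest in every group, and rapamycin values lay below the DMSO range while the KU-0063794 value of spleen 1 lay within it. Acadm had a log2 fold change of -0.26 with KU-0063794 (limma adjusted p = 0.360, or 0.0655 with the replicate block) and -0.30 with rapamycin (adjusted p = 0.301, 0.0452 with the block, and 0.122 with a random block).

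Of the later steps, neither subunit gene of the trifunctional protein passed. This complex joins the hydratase and hydroxyacyl-CoA dehydrogenase of the alpha subunit with the thiolase of the beta subunit. Hadha read 3.88, 3.71 and 4.02 log2 with KU-0063794, 3.81, 4.05 and 3.90 with rapamycin and 3.96, 3.90 and 4.07 with DMSO, with overlapping groups and log2 fold changes of -0.11 (95% interval -0.34 to 0.12) and -0.06 (95% interval -0.29 to 0.18). Hadhb read 5.52, 5.75 and 5.34 log2 with KU-0063794, 5.73, 5.80 and 5.70 with rapamycin and 5.51, 5.64 and 5.47 with DMSO, by probe set 1437172_x_at. The rapamycin values lay above the DMSO range, with a log2 fold change of 0.20 (95% interval -0.04 to 0.44, limma adjusted p = 0.370, or 0.145 with the replicate block), the highest of the 10 genes. The KU-0063794 difference from DMSO was 0.00 (95% interval -0.24 to 0.24). A probe set of similar brightness, 1426522_at, gave 0.01 with KU-0063794 and 0.16 with rapamycin, also short of the test (adjusted p = 0.992 and 0.564).

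Acaa2 encodes the mitochondrial medium-chain thiolase, the last enzyme of the cycle. It read 3.88, 4.05 and 3.80 log2 with KU-0063794, 3.87, 4.07 and 3.94 with rapamycin and 3.96, 4.18 and 4.07 with DMSO, lower with either inhibitor in each spleen but with overlapping groups. The log2 fold change was -0.16 with KU-0063794 (95% interval -0.38 to 0.06, limma adjusted p = 0.435) and -0.11 with rapamycin (95% interval -0.33 to 0.11, adjusted p = 0.635). Its probe set 1455061_a_at differed by -0.41 and -0.05 log2 and 1428145_at by -0.21 and 0.05, so the direction with rapamycin was not shared by all 3.

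Etfdh encodes ETF-ubiquinone oxidoreductase, which hands the electrons of every acyl-CoA dehydrogenase named here to ubiquinone. It read 3.44 log2 on all 3 KU-0063794 arrays, 3.33, 3.36 and 3.05 with rapamycin and 3.47, 3.70 and 3.78 with DMSO. All 6 inhibitor values were below the DMSO range. The log2 fold change was -0.21 with KU-0063794 (95% interval -0.45 to 0.04, limma adjusted p = 0.365) and -0.40 with rapamycin (95% interval -0.65 to -0.16, adjusted p = 0.0794, 0.0560 with the replicate block, and 0.0391 when it was random). The 3 KU-0063794 values were identical in the deposited table, and such ties were common: 13.0% of probe sets held 1 value on all 3 arrays of a group, and 81.8% held the same value on at least 2 of the 9 arrays.

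**Figure D2:**
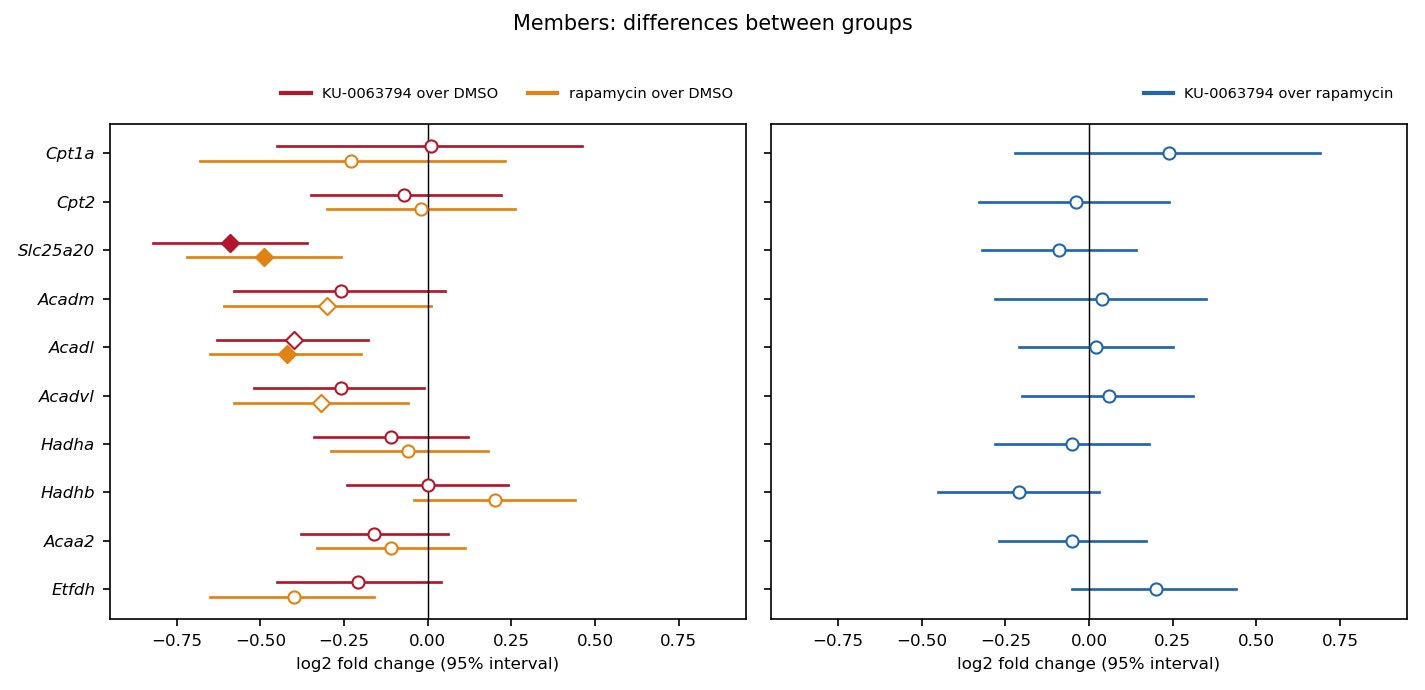
Log2 fold change with its 95% interval (x axis) of the 10 genes (y axis), for KU-0063794 and rapamycin over DMSO (left) and KU-0063794 over rapamycin (right). Filled symbols passed the adjusted threshold without the spleen, diamonds passed with the spleen as a block, and open circles passed in neither. Slc25a20 is filled for both inhibitors, Acadl for rapamycin alone, and all intervals on the right cross 0.

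The comparison of KU-0063794 with rapamycin asks whether blocking the kinase itself differs from rapamycin; their doses differ, at 1 uM and 20 nM. None of the 10 genes differed between them, with or without the replicate block, and limma called 0% of all genes tested in either fit. At an unadjusted p under 0.05 the count was 629 of 13278 genes without the block and 1329 with it, and among the 10 genes 0 without it and 2 with it, Cpt1a (unadjusted p = 0.0134 in limma's blocked fit) and Hadhb (0.0292). The log2 fold changes of the 10 genes ran from -0.21 to 0.24. The widest were Cpt1a (0.24, 95% interval -0.22 to 0.69, limma adjusted p = 0.959), Hadhb (-0.21, 95% interval -0.45 to 0.03, adjusted p = 0.933) and Etfdh (0.20, 95% interval -0.05 to 0.44, adjusted p = 0.933), each with the same sign in all 3 spleens. For Slc25a20 the difference was -0.09 (95% interval -0.32 to 0.14) and for Acadl 0.02 (95% interval -0.21 to 0.25). Intervals this wide do not show that the inhibitors act alike.

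Within groups, the 10 genes did not vary together as 1 set. Deviations of the 9 arrays from their group means gave a median Pearson r of 0.08 over the 45 gene pairs, with r above 0 in 24. They ran from -0.89 for Cpt1a with Acadl to 0.91 for Cpt1a with Acaa2, as a description over arrays that share 3 spleens. Cpt1a, Hadhb and Acaa2 had r of 0.78 to 0.91 with each other and of -0.89 to -0.75 with Acadl. Spleen 2 was highest in every group for Cpt1a, Hadhb by probe set 1437172_x_at, and Acaa2, and lowest in every group for Acadl. The SD within groups was 0.29 log2 for Cpt1a and 0.11 to 0.19 for the others, against a median of 0.14 over all genes tested. By Pearson r over the 9 arrays with the mean standardised profile of the 10 genes, the most alike of 7944 other genes above the background level were Uqcrb (0.990), Sod2 (0.976), Apip (0.964), Srp72 (0.95) and M6pr (0.947), given as a description. Uqcrb encodes a subunit of respiratory complex III and Sod2 the mitochondrial superoxide dismutase.

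Around these 10 genes, 70 of 88 listed symbols of fatty acid handling could be tested. Of the 70, 4 fell and none rose with KU-0063794, and 5 fell and none rose with rapamycin, against the shares of all genes given above. These lists too were chosen with earlier results of these data known, so their counts are a description. With the replicate block 10 fell and 3 rose with KU-0063794, and 13 fell and 1 rose with rapamycin. Of all genes tested, 5.86% fell and 6.52% rose with KU-0063794 in that fit, and 5.52% fell and 6.24% rose with rapamycin. Their median log2 fold change was -0.07 with KU-0063794 and -0.10 with rapamycin.

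Among 22 other genes of mitochondrial oxidation, Acads and Hsd17b10 fell with both inhibitors, none rose and 20 did not pass. Of all genes tested, 1.78% fell with KU-0063794 and 1.79% with rapamycin. Acads, the short-chain acyl-CoA dehydrogenase gene, read 3.06, 3.01 and 3.24 log2 with KU-0063794, 3.14, 3.15 and 3.09 with rapamycin and 3.59, 3.43 and 3.55 with DMSO. Its inhibitor values all lay below the DMSO range, with log2 fold changes of -0.42 (SE 0.09, limma adjusted p = 0.0293) and -0.40 (SE 0.09, adjusted p = 0.0340). Hsd17b10, whose product oxidises short branched acyl groups and is also a subunit of mitochondrial RNase P, read 5.20, 5.39 and 5.18 log2 with KU-0063794, 5.23, 5.05 and 5.20 with rapamycin and 6.19, 5.73 and 5.68 with DMSO. The groups did not overlap with DMSO, and the log2 fold changes were -0.61 (SE 0.14, limma adjusted p = 0.0394) and -0.71 (SE 0.14, adjusted p = 0.0225). Its other probe set gave -0.68 and -0.75. The KU-0063794 call of Acads was lost without DMSO replicate 1 or 3 or KU-0063794 replicate 1 or 2 (adjusted p from 0.0788 to 0.109), and its rapamycin call without DMSO replicate 1 or 3, KU-0063794 replicate 1 or any rapamycin array (0.0582 to 0.116). For Hsd17b10 the KU-0063794 call was lost without DMSO replicate 1 or any KU-0063794 or rapamycin array (0.0574 to 0.133), and the rapamycin call without any rapamycin array (0.0606 to 0.0761). With only the 2 groups compared in the fit, the adjusted p was 0.0834 and 0.0647 for Acads and 0.110 and 0.0777 for Hsd17b10, with KU-0063794 and rapamycin in that order. Acads with rapamycin was also lost with a trended prior (0.0533), and Hsd17b10 with KU-0063794 when probe sets were averaged (0.0669). With the replicate block Hadh (log2 fold change -0.29, adjusted p = 0.0379), the short-chain hydroxyacyl-CoA dehydrogenase gene, Acat1 (-0.27, adjusted p = 0.0472) and the isomerase gene Eci1 (-0.31, adjusted p = 0.0473) also passed for rapamycin, and Eci2 (-0.50, adjusted p = 0.0141) for KU-0063794; of these, Hadh was lost with a random block (0.147). The electron transfer flavoprotein genes did not pass in either fit: Etfa had log2 fold changes of -0.01 and -0.05 with KU-0063794 and rapamycin, and Etfb -0.04 and -0.16. Echs1, the short-chain hydratase gene, had -0.07 and -0.13.

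**Figure D3:**
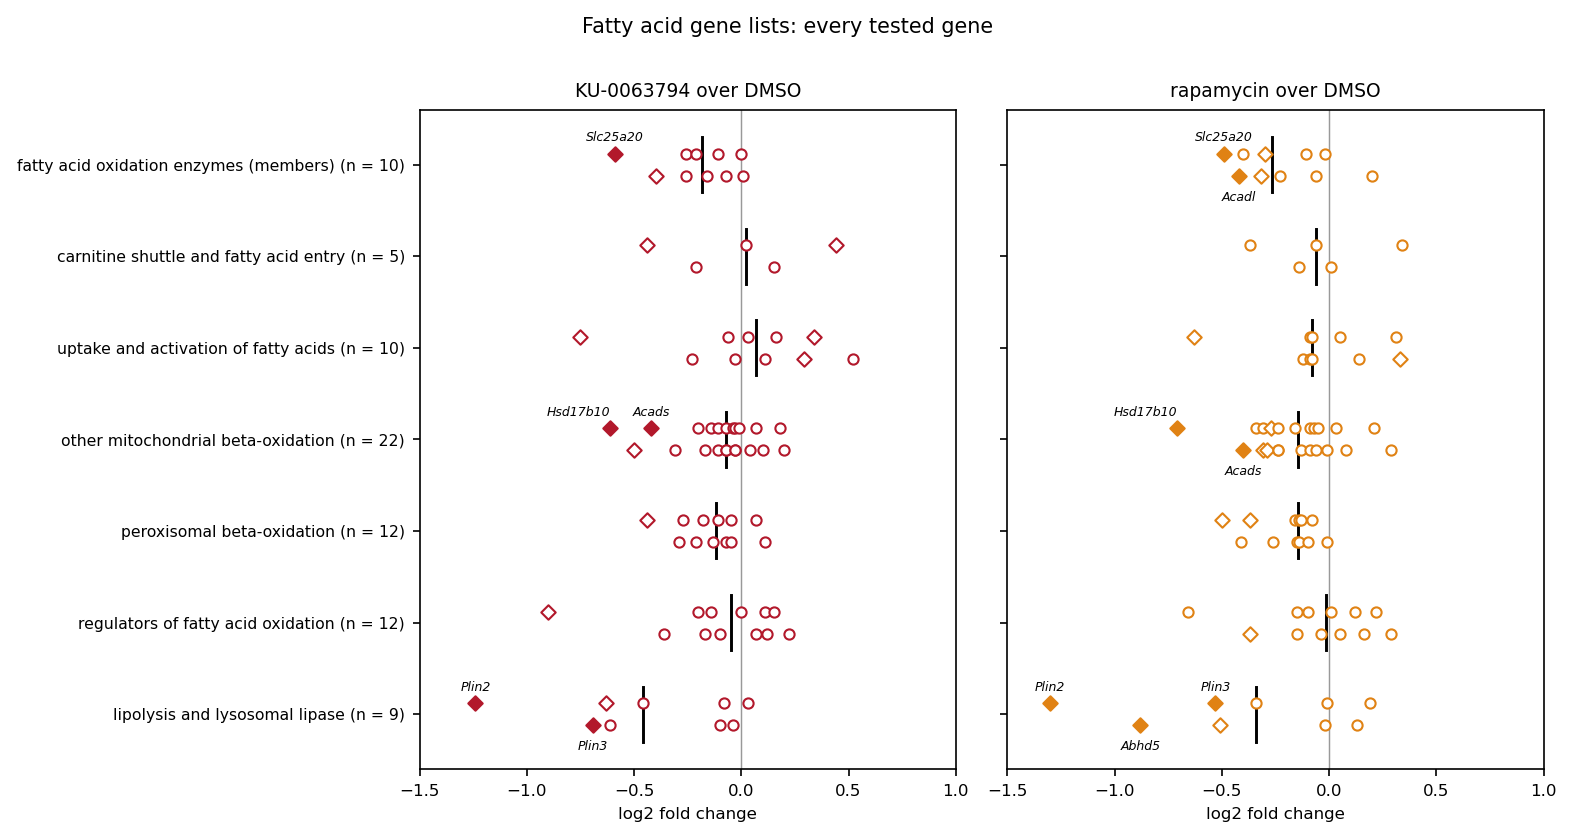
Log2 fold change (x axis) of every tested gene by list (y axis, with the number of genes), for KU-0063794 over DMSO (left) and rapamycin over DMSO (right). Filled diamonds passed in both fits and are named, open diamonds passed in the blocked fit alone, circles passed in neither, and black bars are list medians. The list of lipolysis and lysosomal lipase has the lowest median in both panels, at -0.46 and -0.34.

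In the list of lipolysis and lysosomal lipase, which holds lipid droplet genes too, 2 of 9 fell with KU-0063794 and 3 of 9 with rapamycin. None rose, and of all genes tested 1.78% and 1.79% fell. The calls were Plin2 and Plin3 with both inhibitors and Abhd5 with rapamycin. The tested lipase genes Lipa, Pnpla2, Pnpla8 and Mgll did not pass without the block. Plin2 encodes the lipid droplet coat protein perilipin 2. It read 3.36, 3.73 and 3.50 log2 with KU-0063794, 3.50, 3.64 and 3.27 with rapamycin and 5.05, 4.69 and 4.57 with DMSO, a gap of more than the spread of any group. The signal was 42.2% of DMSO with KU-0063794 (log2 fold change -1.24, SE 0.15, limma adjusted p = 0.00739) and 40.6% with rapamycin (log2 fold change -1.30, SE 0.15, adjusted p = 0.00605). Both calls held with any single array left out (adjusted p from 0.0119 to 0.0392), and both were lost with any whole spleen left out, which leaves 2 arrays a group (0.0720 to 0.141 with KU-0063794 and 0.0726 to 0.127 with rapamycin). Plin3, another droplet coat gene, averaged 3.76 ± 0.21 log2 with KU-0063794, 3.92 ± 0.12 with rapamycin and 4.45 ± 0.04 with DMSO (SD, n = 3 each). It fell to 62.0% of DMSO with KU-0063794 (log2 fold change -0.69, limma adjusted p = 0.0160) and to 69.1% with rapamycin (-0.53, adjusted p = 0.0321). Abhd5 encodes the coactivator of adipose triglyceride lipase. It read 2.13, 2.02 and 1.96 log2 with KU-0063794, 2.21, 1.78 and 1.28 with rapamycin and 2.66, 2.56 and 2.70 with DMSO. It fell with rapamycin (-0.88, limma adjusted p = 0.0352), where 1 of 3 arrays was below the background level, and had -0.61 with KU-0063794 (adjusted p = 0.122). Its 2 other probe sets were below the background level on all arrays. The KU-0063794 call of Plin3 was lost without DMSO replicate 1 or KU-0063794 replicate 2 or 3 (adjusted p from 0.0599 to 0.0640), and its rapamycin call without any DMSO or rapamycin array (0.0565 to 0.109). The rapamycin call of Abhd5 was lost without each array other than rapamycin replicate 1 (0.0591 to 0.114), and its KU-0063794 difference passed without rapamycin replicate 3 (0.0367). With only the 2 groups compared in the fit, Plin3 was at 0.0545 with KU-0063794 and 0.0525 with rapamycin, and Abhd5 at 0.0488 with KU-0063794 and 0.115 with rapamycin. The lysosomal acid lipase gene Lipa passed in neither fit (log2 fold change -0.46 and -0.34, adjusted p = 0.0990 and 0.220), and with a random block it passed for KU-0063794 (0.0442). The glycerol channel gene Aqp9 passed with the replicate block (-0.63 with KU-0063794, adjusted p = 0.00320, and -0.51 with rapamycin, adjusted p = 0.00627), the rapamycin call being lost with a random block (0.0579).

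**Figure D4:**
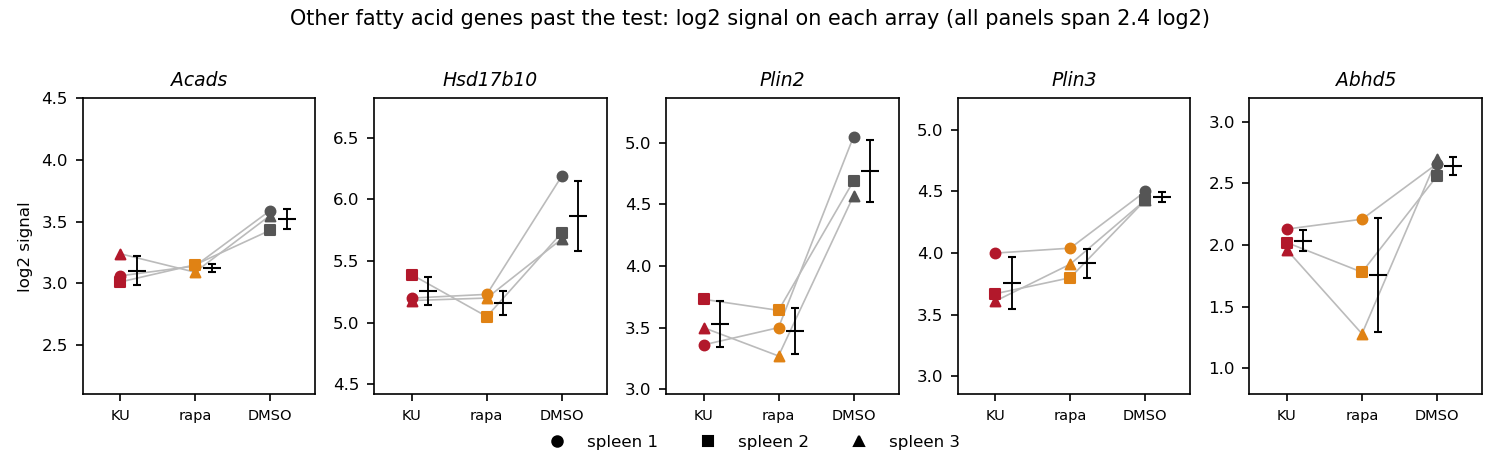
Log2 signal (y axis) of the 5 other fatty acid genes past the test on every array, by group (x axis: KU-0063794 as KU, rapamycin as rapa, DMSO), with spleens as symbols joined by grey lines. Black marks give the mean and SD of 3 arrays, and every panel spans the same 2.4 log2. All inhibitor values lie below the DMSO values of the same gene, with the widest gap for Plin2. The genes were picked because they passed on these same arrays, so the separation is a description.

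The other lists had no call without the block. Of 10 genes of uptake and activation, the acyl-CoA synthetase gene Acsl4 was lower with the replicate block, with log2 fold changes of -0.75 with KU-0063794 (adjusted p = 0.00560, or 0.156 without the block) and -0.63 with rapamycin (0.0105, or 0.246 without it and 0.0759 with a random block). Another synthetase gene, Acsl5, was higher, at 0.29 (0.0255 with the block, 0.155 without it) and 0.33 (0.0161 with the block, 0.108 without it). The fatty acid binding protein gene Fabp5 was higher with KU-0063794 under the block (0.34, adjusted p = 0.0454, or 0.0953 with a random block), and Acsl3 passed in neither fit. Of 5 other genes of the carnitine system, Crot, a peroxisomal octanoyltransferase gene, was lower (-0.44, adjusted p = 0.0114) and Slc22a5, the plasma membrane carnitine transporter gene, higher (0.44, adjusted p = 0.0465) with KU-0063794 under the block. Of 12 peroxisomal genes Pex5 was lower with KU-0063794 (-0.44, adjusted p = 0.0408) and rapamycin (-0.50, adjusted p = 0.0248) under the block, from a probe set above the background level on 2 of 3 DMSO arrays and on no inhibitor array, and Phyh with rapamycin (-0.37, adjusted p = 0.0365). Acot8, a peroxisomal thioesterase gene, passed in neither fit.

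Of 12 regulators none passed without the block. The nuclear receptor genes Pparg (-0.90 with KU-0063794, adjusted p = 0.0284 with the replicate block, 0.411 without it and 0.184 with a random block) and Ppard (-0.37 with rapamycin, adjusted p = 0.0336 with the block, 0.170 without it and 0.0597 with a random block) passed with it, Ppard lying below the background level on 5 of the 6 rapamycin and DMSO arrays. The coactivator gene Ppargc1b had log2 fold changes of 0.15 with KU-0063794 and 0.22 with rapamycin, and the receptor gene Esrra -0.10 and -0.04, all short of the test in both fits.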

How the data were processed

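Total RNA of 9 cultures was measured on 1 Affymetrix mouse array each. The authors deposited, for every probe set, a log2 signal; per the submitters' processing notes Affymetrix Expression Console 1.3.1 was used, and its summarisation and normalization settings are not given in the sources used here. Spiked hybridisation controls gained 1.04 per doubling of their nominal concentration, which is the check made of the scale. Of 45101 probe sets, 34945 with 1 symbol in the annotation were used; each gene was represented by its brightest probe set by mean, and 13278 of 18193 genes with a mean above the 40th percentile (0.31 log2) were tested. All 10 members passed this filter. Contrasts between groups came from limma 3.58.1 under R 4.3.3 (lmFit and eBayes, all 9 arrays, group as the only term, two-sided, Benjamini-Hochberg over all genes tested), a procedure tested on simulated data. Arrays of 1 number share a spleen, per the labels, so a second fit takes spleen as a blocking term: in the 9 pairs of arrays of the same spleen, deviations from group means correlated with r 0.345 to 0.533, against -0.414 to -0.0791 in the 18 others. P-values measure the spread between cultures of 3 spleens, and the number of arrays limits precision. Named were the 10 members, listed genes that passed in either fit, a fixed panel, and the 5 genes most like the members. Members and lists were chosen with earlier results of these data known. Of the panel, Acsl1 is not analysed here, and Cd36 fell under the filter. Alternatives covered the block, the groups fitted, normalization, filters, the choice of probe sets, the prior and left-out arrays.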

Additional observations from a re-analysis of the deposited data

How the results depend on the processing

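The replicate block (the spleen as a paired term) raised the calls among the 10 genes to 2 with KU-0063794, against 1 without it, and to 4 with rapamycin, against 2; over all genes it gave 1644 and 1561, against 540 and 590. A random block gave 2 members with KU-0063794 and 3 with rapamycin (Slc25a20, Acadl and Etfdh, without Acadm and Acadvl), and 1291 and 1245 genes. With only the 2 groups compared in the fit no member passed, and 111 and 98 genes did. Averaging a gene's probe sets left 0 members with either inhibitor. With rapamycin 1 member passed after quantile normalization, with no filter and with every probe set tested, since Acadl was lost. With KU-0063794 2 passed among genes above the background level and with a trended prior. With 1 array left out 0 to 2 members passed with KU-0063794 and 0 to 1 with rapamycin, of 120 to 540 and 168 to 511 genes. With a whole spleen left out no member passed, and 0 to 3 and 0 to 1 genes did, so the calls of Acads, Hsd17b10, Plin2, Plin3 and Abhd5 were lost too. KU-0063794 over rapamycin gave 0 calls under every setting. Signs turned only for differences short of the test, which ran from -0.12 to 0.11 log2 in the fit without the block, both ends being Acsl3. With probe sets averaged, Cpt2 over DMSO was 0.04 with either inhibitor and Acadl in KU-0063794 over rapamycin was -0.11. Hadhb with KU-0063794 was 0.00 after quantile normalization. Leaving out 1 array or 1 spleen gave, over DMSO with KU-0063794, -0.15 to 0.16 for Cpt1a, -0.22 to 0.12 for Cpt2, -0.11 to 0.09 for Hadhb, -0.13 to 0.09 for Hadh, -0.08 to 0.05 for Etfa, -0.06 to 0.01 for Etfb, -0.03 to 0.25 for Acsl3 and -0.17 to 0.05 for Acot8. With rapamycin it gave -0.12 to 0.07 for Cpt2, -0.11 to 0.02 for Etfa, -0.34 to 0.25 for Acsl3 and -0.12 to 0.01 for Esrra. KU-0063794 over rapamycin ran from -0.16 to 0.07 for Cpt2, -0.19 to 0.02 for Slc25a20, -0.07 to 0.17 for Acadm, -0.04 to 0.06 for Acadl, -0.06 to 0.13 for Acadvl, -0.14 to 0.09 for Hadha and -0.12 to 0.00 for Acaa2. Apart from the values named, the cause of these changes was not tested.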
